A study of Mus musculus with 4 samples.

Results

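The enzymes that break down threonine and glycine and pass their carbon to folate were followed in mouse embryonic stem cell (ESC)-derived neural tissue, as the probe sets annotated to 1 of these genes alone. Of 9 genes named (Tdh, Gcat, Gldc, Amt, Shmt1, Shmt2, Mthfd1, Mthfd2 and Mat2a), 5 had such probe sets, which gave 14 of the 45101 probe sets on the arrays. They were 4 of Shmt1, 4 of Shmt2, 3 of Mthfd1, 2 of Mthfd2 and 1 of Gldc. Gcat, which acts after Tdh in threonine breakdown, had 3 probe sets that the annotation also gives to Galr3, and Tdh, Amt and Mat2a were named for no probe set in the annotation used, so these 4 genes were not analysed here. A supplementary list of the study does pair a probe set with Tdh. That list holds only probe sets called as changed on these arrays, so it was not used to name one. The arrays may also carry probe sets for the others that this annotation leaves unnamed. No value is given here for the threonine step itself. Both groups came from ESCs of the Rax::eGFP reporter line, in which GFP marks cells that express the rostral forebrain gene Rax, grown as floating aggregates in serum-free medium without growth factors (SFEBq culture). At day 4.5, pooled aggregates were sorted by FACS into rostral cells, Rax::GFP+, and presumptive caudal cells, Rax::GFP-, and total RNA of 2 samples per group, called biological duplicates, was measured on 4 Affymetrix arrays. The groups are thus defined by 1 reporter of 1 cell line, and GFP- cells are every cell without the reporter signal, of whatever type.

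Serine hydroxymethyltransferases (Shmt1 in the cytosol, Shmt2 mainly in mitochondria) turn serine into glycine and hand the released carbon to tetrahydrofolate. The glycine cleavage system, of which Gldc is the decarboxylase, draws a further carbon unit from glycine in mitochondria. Mthfd1 in the cytosol and Mthfd2 in mitochondria interconvert the folate-bound carbon units, which go into purines, thymidylate and, by way of methionine, into the methyl donor S-adenosylmethionine. Mouse ESCs are known for their use of threonine as a source of glycine and one-carbon units.

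Shmt1 and Mthfd1, the cytosolic enzymes among these genes, were higher in GFP- cells, by 1.38-fold and 1.37-fold at their most expressed probe sets. Shmt2, Mthfd2 and Gldc, the mitochondrial ones, did not pass the test at any probe set. Mthfd2 differed by 0.37 at 1419253_at (limma adjusted p = 0.0616), which passed in the fit limited to brighter probe sets described below. Mthfd1l, a mitochondrial enzyme of the wider network, was higher by 0.65 (limma adjusted p = 0.0190). No contrast between cytosolic and mitochondrial enzymes was tested. In all, limma called 4 of the 14 probe sets as higher in GFP- cells and 0 as lower, beside 7.47% of the 45101 called in either direction, 3.64% as higher and 3.82% as lower. By the most expressed probe set, 2 of 5 genes were higher, against 5.4% of 18194 genes (8.02% in either direction). An unadjusted p under 0.05 was reached by 7 of the 14, all of them higher in GFP- cells, beside 26.7% of all probe sets in either direction and 13.6% as higher. Every difference is given as GFP- minus GFP+ on the log2 scale of the deposited RMA values, with 1 value per probe set and array, and was tested with limma (2 groups, Benjamini-Hochberg adjustment over all probe sets, threshold 0.05). All 14 probe sets reached a log2 value of 5 on 2 or more arrays, and when the fit was limited to such probe sets, 6 of the 14 were higher, against 7.77% of 29042 (16.1% in either direction). Probe sets of 1 gene share a transcript, so these counts rest on fewer genes than probe sets. The genes were also chosen with earlier results of these data known. The shares over all probe sets and genes are thus given for scale and are no test.

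The sorted cells carried the markers of their labels. Of 6 measured rostral neural genes, 5 were lower in GFP- cells and none was higher. Rax, the reporter gene itself, was at 10.70 and 10.86 on the GFP+ arrays against 8.58 and 8.88 on the GFP- arrays. Of 5 caudal neural genes, 4 were higher, with Irx3 at 6.88 and 6.57 on the GFP+ arrays against 9.67 and 8.95 on the GFP- arrays. Of 6 pan-neural genes, 4 were lower. Markers of other cell types moved with the sort as well. Of 10 pluripotency genes, 9 were called higher and 0 lower, and the mean log2 value of the list was 6.68 to 6.80 on the GFP+ and 9.05 to 9.09 on the GFP- arrays. Of 6 genes of the primed epiblast, the state that follows naive pluripotency, 4 were higher and 1 was lower, with list means of 9.86 to 9.94 and 11.05 to 11.06. Among them Fgf5 was at 6.69 and 6.64 on the GFP+ arrays against 10.09 and 10.22 on the GFP- arrays. Of 11 endoderm genes, 8 were higher and 1 was lower, with list means of 6.16 to 6.66 and 8.10 to 8.20, and of 5 mesoderm genes 1 was higher, with means of 5.41 to 5.44 and 5.98 to 6.35. RMA values have no zero, so no marker can be called absent. These lists moved with every difference given here, their part in it was not tested, and in such bulk samples more cells of a type and more RNA per cell cannot be told apart. Array medians lay between 5.84 and 5.89, and none of 4 reference genes passed limma, with Gapdh at -0.02, Actb at -0.01, Tbp at 0.00 (-0.0009 before rounding) and Hprt at -0.32 (unadjusted p = 0.0314 and adjusted p = 0.146, both from limma). The difference of Hprt was as large as some of those given below for the enzymes.

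The promoters of Shmt1 and Mthfd1, the called genes, are shown for reference, and whether they share regulation was not tested. Each is given as the 250 bases before the start site in the RefSeq table of build GRCm38.p6, where all 5 measured genes had an entry. Capitals mark the letters GGGCGG (a GC box) and CCAAT on either strand, so that CCGCCC and ATTGG are the same motifs read on the other strand.
Shmt1, chr11:60811266-60811515, minus strand: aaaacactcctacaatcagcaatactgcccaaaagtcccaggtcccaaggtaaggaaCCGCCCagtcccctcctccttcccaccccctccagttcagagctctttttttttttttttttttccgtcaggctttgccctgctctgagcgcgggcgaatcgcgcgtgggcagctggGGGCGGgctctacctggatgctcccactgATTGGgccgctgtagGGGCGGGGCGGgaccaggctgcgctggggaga
Mthfd1, chr12:76254982-76255231, plus strand: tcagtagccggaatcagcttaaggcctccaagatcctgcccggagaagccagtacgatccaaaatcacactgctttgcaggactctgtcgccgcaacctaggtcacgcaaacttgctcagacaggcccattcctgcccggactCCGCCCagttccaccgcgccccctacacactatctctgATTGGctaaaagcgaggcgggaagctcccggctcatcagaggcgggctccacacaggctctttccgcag
The Shmt1 window held GGGCGG 3 times on the strand of the gene, with the last copies overlapping, and 1 time on the other strand, and it held CCAAT 1 time. The Mthfd1 window held each motif 1 time. The window of Gldc, which did not pass the test, also held each of them 1 time, that of Mthfd2 held CCAAT 3 times and no GGGCGG, and that of Shmt2 held neither. Of 32851 promoter windows of this length, 32.7% held GGGCGG and 33.8% held CCAAT on either strand. The E-box CACGTG, found in 6.02% of all windows, and TGATGNAA, letters of the kind bound by Atf4, found in 3.45%, were in none of the 5. A match describes letters and not a bound site.

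Shmt1, the cytosolic enzyme that splits serine into glycine and a folate-bound carbon, was higher in GFP- cells at 2 of its 4 probe sets. At the most expressed, 1425179_at, the log2 value was 9.53 and 9.58 in GFP+ cells against 10.01 and 10.03 in GFP- cells. Both GFP- arrays lay above both GFP+ arrays, and the difference was 0.47 (standard error, SE, 0.07, 95% interval 0.28 to 0.66, limma adjusted p = 0.0367). At 1425178_s_at the values were 8.86 and 8.79 in GFP+ against 9.27 and 9.23 in GFP- cells, a difference of 0.43 (SE 0.08, limma adjusted p = 0.0469). The ending _s_at is a mark of Affymetrix for probes shared between transcripts, so this call may not be of Shmt1 alone. At 1422198_a_at the values were 7.52 and 7.78 in GFP+ against 8.15 and 8.31 in GFP- cells. That was the largest difference of the 14 probe sets, 0.58, with a wider spread between replicates (SE 0.12, limma adjusted p = 0.0648), and it passed in the fit limited to brighter probe sets (limma adjusted p = 0.0468).

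The remaining probe set of Shmt1 went the other way. At 1425177_at the log2 value was 9.17 and 9.28 in GFP+ against 9.15 and 9.05 in GFP- cells, so both GFP- arrays lay just below the GFP+ arrays. The difference was -0.13 (95% interval -0.35 to 0.10, limma adjusted p = 0.423). The interval excludes the differences of 0.47 and 0.43 measured at the called probe sets. This probe set and both called ones are annotated to the same source sequence, 3 of the 4 in all, and which stretch of the transcript each reads was not examined. Averaged over its 4 probe sets, Shmt1 differed by 0.34 (limma adjusted p = 0.0336).

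Mthfd1, the cytosolic enzyme that carries several of the folate interconversions in a single protein, was higher in GFP- cells at both of its brighter probe sets. At 1415916_a_at the log2 value was 11.59 and 11.61 in GFP+ against 12.02 and 12.09 in GFP- cells. The gap between the groups was several times the spread within either, and the difference was 0.46 (SE 0.07, 95% interval 0.26 to 0.65, limma adjusted p = 0.0400). At 1415917_at the values were 10.83 and 10.88 in GFP+ against 11.32 and 11.41 in GFP- cells, a difference of 0.51, or 1.42-fold (SE 0.08, limma adjusted p = 0.0361). At 1436704_x_at, a design that Affymetrix marks as able to bind other transcripts, the values were 9.92 and 9.79 in GFP+ against 10.35 and 9.95 in GFP- cells. Here the GFP- replicates stood apart from each other and the difference of 0.30 did not pass (SE 0.16, limma adjusted p = 0.314).

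**Figure D1:**
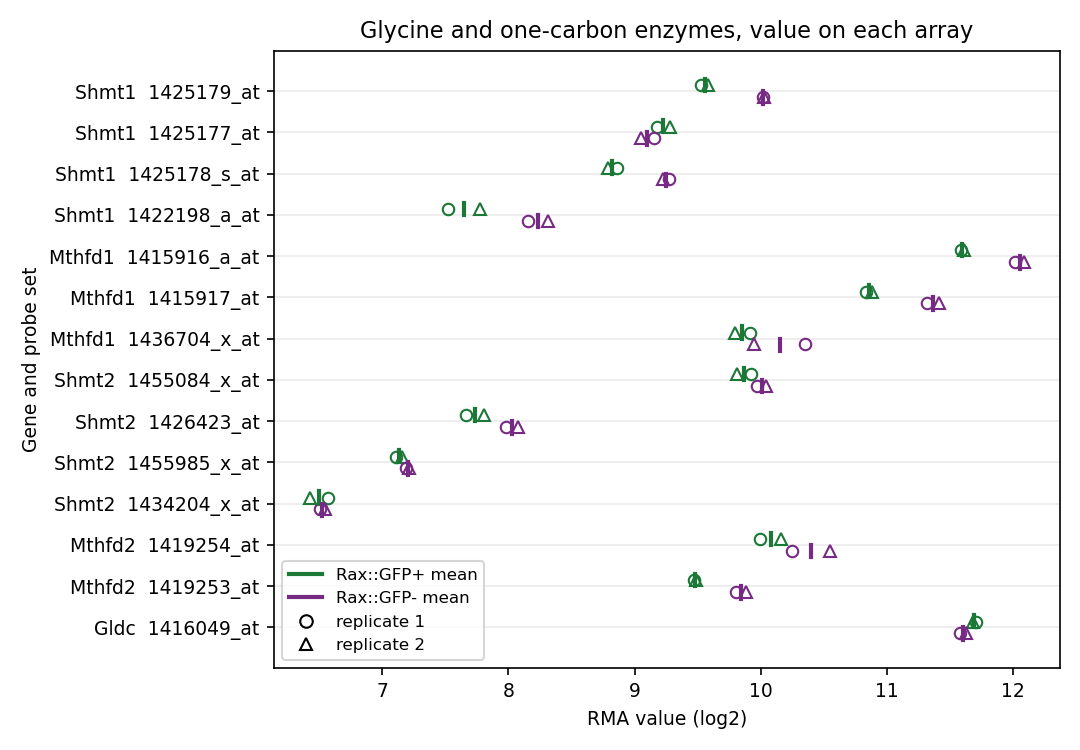
RMA value (log2, x axis) of the 14 probe sets of Shmt1, Mthfd1, Shmt2, Mthfd2 and Gldc (y axis) on each array, with GFP+ arrays in green and GFP- arrays in purple, circles for replicate 1, triangles for replicate 2 and bars for group means. The groups are clear of each other at the most expressed probe sets of Shmt1 (9.58 and below against 10.01 and above) and Mthfd1 (11.61 and below against 12.02 and above), and they overlap at 1 probe set of Shmt2.

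Shmt2, the serine hydroxymethyltransferase of mitochondria, did not pass limma at any of its 4 probe sets, and 1 had an unadjusted p under 0.05. At the most expressed, 1455084_x_at, the log2 value was 9.92 and 9.81 in GFP+ against 9.97 and 10.04 in GFP- cells, a difference of 0.14 (95% interval -0.08 to 0.36, limma adjusted p = 0.352). The GFP- arrays were higher, though by less than the interval can tell from 0. At 1426423_at, the 1 probe set of Shmt2 without the mark for binding to other transcripts, the values were 7.67 and 7.80 in GFP+ against 7.98 and 8.07 in GFP- cells. That difference was 0.29 (SE 0.09, 95% interval 0.06 to 0.53, limma adjusted p = 0.127). The probe sets 1455985_x_at and 1434204_x_at differed by 0.07 and 0.03, and the groups overlapped at the last of these, where GFP+ cells gave 6.57 and 6.42 and GFP- cells 6.50 and 6.54.

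Mthfd2, the mitochondrial folate dehydrogenase and cyclohydrolase that is abundant in embryonic and dividing cells, had positive differences at both probe sets without passing. At 1419254_at, the most expressed, the log2 value was 10.00 and 10.16 in GFP+ against 10.25 and 10.55 in GFP- cells, a difference of 0.32 (SE 0.13, 95% interval -0.04 to 0.68, limma adjusted p = 0.223). At 1419253_at the values were 9.47 and 9.49 in GFP+ against 9.80 and 9.88 in GFP- cells. The arrays of a group were closer together there and the difference was 0.37 (SE 0.07, limma adjusted p = 0.0616), which passed once each array was centred on its median (0.40, limma adjusted p = 0.0472) and in the fit limited to brighter probe sets (limma adjusted p = 0.0359). The interval of the most expressed probe set includes the differences of Shmt1 and Mthfd1, so no contrast between cytosolic and mitochondrial enzymes was shown, and none was tested.

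Gldc, the decarboxylase of the glycine cleavage system, had a log2 value of 11.71 and 11.68 in GFP+ against 11.58 and 11.62 in GFP- cells at its single probe set. Both GFP- arrays were slightly lower, and the difference of -0.09 did not pass (SE 0.07, 95% interval -0.28 to 0.10, limma adjusted p = 0.484). The interval leaves out a difference as large as that of Shmt1 or Mthfd1 in either direction. Its partners in the system were close between the groups too: Gcsh, the lipoyl carrier protein, differed by -0.12 (limma adjusted p = 0.385) and Dld, the dehydrogenase shared with other mitochondrial complexes, by 0.00 (-0.004 before rounding, limma adjusted p = 0.983). Neither had an unadjusted p under 0.05.

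**Figure D2:**
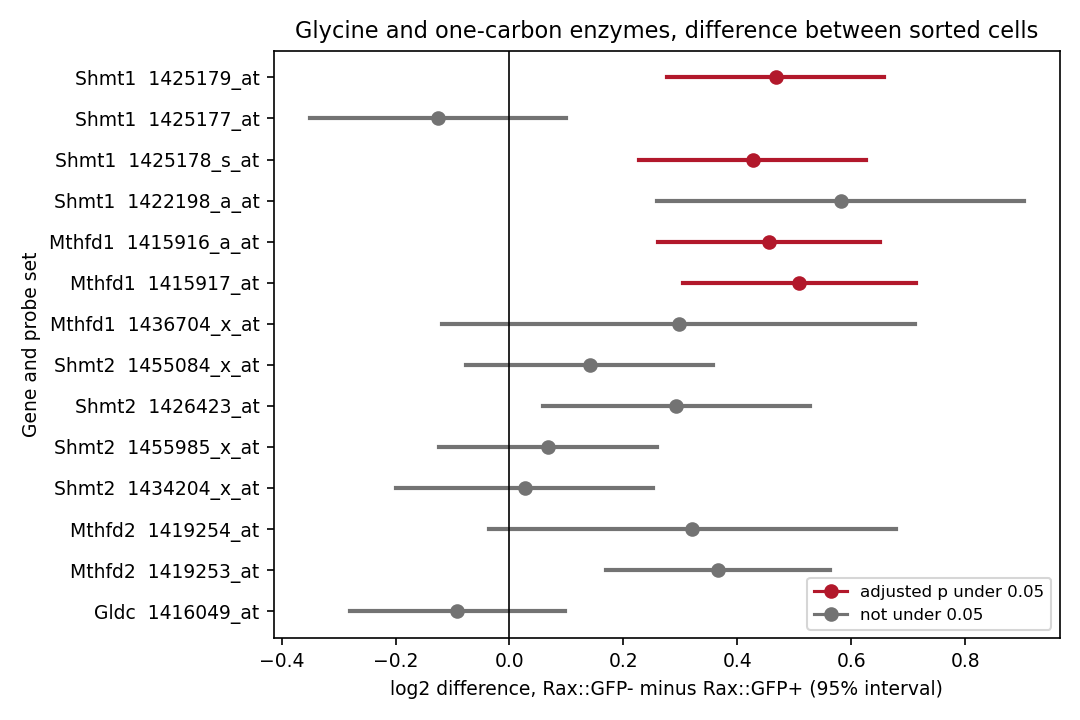
Log2 difference, GFP- minus GFP+ (x axis), of the same 14 probe sets (y axis), with the 95% interval of limma's moderated test as a line, drawn in red for an adjusted p below 0.05 and in grey for the others. The 4 red probe sets, 2 of Shmt1 and 2 of Mthfd1, lie between 0.43 and 0.51, and 1 probe set of Shmt1 and that of Gldc lie below 0, at -0.13 and -0.09.

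Across the 14 probe sets, 12 differences were above 0 and 2 below, with a median of 0.31, beside 57.1% above 0 and a median of 0.03 over all probe sets. The groups did not overlap at 13 of them, 11 higher and 2 lower in GFP- cells, where 57.3% of all probe sets had groups that did not overlap and 32.5% had them higher in GFP- cells. With 2 arrays a group, the smallest p of an exact permutation test is 0.333, so each call leans on the spread that limma shares across probe sets. With a block for the replicate number, neither these probe sets nor any other on the arrays passed limma. The 4 calls did not outlast the loss of any array, and the total of calls over all probe sets also fell in each case. Such a fit leaves 1 array in a group. Across these fits the difference of 1425179_at of Shmt1 ran from 0.44 to 0.49 and that of 1415916_a_at of Mthfd1 from 0.42 to 0.49.

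Around these enzymes, 66 genes of 9 lists of the same network were measured, and by the most expressed probe set 11 passed as higher in GFP- cells and 1 as lower, where 5.4% of all genes were called higher and 2.63% lower. Their median difference was 0.16, beside 0.05 over all genes, and 74.2% of them were above 0, beside 61.9% of all genes. An unadjusted p under 0.05 was reached by 34 of the 66, 30 of them higher, beside 25.8% of all genes in either direction and 16.7% as higher. The lists were chosen with earlier results of these data known, so the shares over all genes give scale and are no test. The count of higher genes in the network fell when any array was left out, and so did the total of calls over all probe sets.

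Of 10 other folate enzymes, 2 were higher and none was lower, with a median of 0.07. Of all genes, 5.4% were called higher and 2.63% lower. Mthfd1l, the mitochondrial enzyme that releases formate to the cytosol, had values of 10.31 and 10.35 in GFP+ against 10.97 and 10.99 in GFP- cells, a difference of 0.65 (SE 0.07, limma adjusted p = 0.0190). A mitochondrial enzyme of the pathway was thus among the called genes. Aldh1l1, the cytosolic enzyme that releases the folate-bound formyl group as carbon dioxide, rose by 1.03 (limma adjusted p = 0.0150), from 5.49 and 5.53 to 6.43 and 6.64. Its other probe set, named after its values were seen, was dim, at 3.26 and 3.48 in GFP+ against 3.46 and 3.33 in GFP- cells. It differed by 0.03 with overlapping groups (limma adjusted p = 0.918). Mthfd2l, a mitochondrial relative of Mthfd2, had the opposite sign without passing, at -0.43 (limma adjusted p = 0.0613), and Fpgs, which retains folates in cells by adding glutamates, differed by 0.08 (limma adjusted p = 0.587). In folate uptake, 1 of 5 genes was higher and 1 was lower. Folr1, a folate receptor, was higher by 1.31 (limma adjusted p = 0.0233), and Slc46a1, the proton-coupled folate transporter, was lower, at -0.42 (limma adjusted p = 0.0475), a call lost with median centring and with quantile normalization. The reduced folate carrier Slc19a1 and the mitochondrial folate carrier Slc25a32 differed by 0.05 and 0.34 (limma adjusted p = 0.789 and 0.0651).

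In the supply of serine and the use of carbon units in purines, no gene passed limma at its most expressed probe set. None of the 3 genes of serine synthesis passed limma (2 had an unadjusted p under 0.05, where 25.8% of all genes did). Phgdh, its first enzyme, was at 0.24 (limma adjusted p = 0.121) and Psat1, the next, at 0.09 (limma adjusted p = 0.471). Of 9 measured genes of purine synthesis, all 9 had a difference above 0 at the most expressed probe set, beside 61.9% of all genes. Their median was 0.18. An unadjusted p under 0.05 was reached by 4, all of them higher, beside 25.8% of all genes in either direction and 16.7% as higher. Paics and Gmps, enzymes of the purine ring and of GMP synthesis, differed by 0.03 and 0.14 (limma adjusted p = 0.820 and 0.303). A less expressed probe set of Atic, the enzyme that adds the last folate-borne carbon of the ring, was higher by 0.59 (limma adjusted p = 0.0441), while less expressed probe sets of Paics, Psat1 and Gmps had the opposite sign without passing, at -0.18, -0.09 and -0.06. These 4 probe sets were named after their values were seen.

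Of 13 genes of the methionine cycle and polyamine synthesis, 1 was higher and none was lower, where 5.4% of all genes were called higher. The median of the list was 0.00 (0.0038 before rounding). Gnmt, which methylates glycine with S-adenosylmethionine, was at 6.05 and 6.18 in GFP+ against 6.67 and 6.74 in GFP- cells, a difference of 0.59 (limma adjusted p = 0.0322). Ahcy, which clears S-adenosylhomocysteine, and Odc1, the first enzyme of polyamine synthesis, differed by 0.05 and 0.00 (limma adjusted p = 0.687 and 0.984). Of 4 genes of transsulfuration and creatine synthesis, Cbs, which joins homocysteine to serine, was higher by 0.90 (limma adjusted p = 0.0245). Its other probe set, named after its values were seen, differed by 0.37 without passing (limma adjusted p = 0.112). Cth, the next enzyme, differed by 0.06 and Gatm, which starts creatine synthesis, by -0.38 (limma adjusted p = 0.642 and 0.187).

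Transporters of amino acids and genes of the Atf4 response, the program by which cells answer a shortage of amino acids, had the largest medians of the 9 lists, 0.34 and 0.45. Of 10 transporter genes, 3 were higher and none was lower, where 5.4% of all genes were called higher. Slc7a3, a carrier of cationic amino acids, rose from 9.51 and 9.78 to 11.03 and 11.27, a difference of 1.50 (SE 0.14, limma adjusted p = 0.0140). Slc7a5, a carrier of large neutral amino acids, and Slc1a5, a carrier of small neutral ones, were higher by 0.52 and 0.50 (limma adjusted p = 0.0294 and 0.0376). The other probe set of Slc1a5, named after its values were seen, had the opposite sign. It differed by -0.09 with overlapping groups (limma adjusted p = 0.752). Slc38a2 and Slc38a1 differed by -0.13 and -0.06 (limma adjusted p = 0.324 and 0.660). The serine and threonine carrier Slc1a4 differed by 0.21 at its most expressed probe set (limma adjusted p = 0.183), and both of its other probe sets, named after their values were seen, were higher by 0.66 and 0.52 (limma adjusted p = 0.0275 and 0.0434).

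Of 10 measured genes of the Atf4 list, 3 were higher and none was lower, where 5.4% of all genes were called higher. All 10 differences were above 0, beside 61.9% of all genes. An unadjusted p under 0.05 as higher was reached by 9, where 16.7% of all genes did so. As this list was chosen with earlier results of these data known, these shares are no test. Nupr1, a stress-responsive chromatin protein, was higher by 1.62 (SE 0.10, limma adjusted p = 0.00774), Trib3, a pseudokinase induced by Atf4, by 0.97 (limma adjusted p = 0.0130), and the transcription factor Cebpb by 0.66 (limma adjusted p = 0.0246). Atf4 itself was at 11.24 and 11.22 in GFP+ against 11.46 and 11.61 in GFP- cells, a difference of 0.30 that did not pass (SE 0.09, limma adjusted p = 0.116), and Ddit4 differed by 0.32 (limma adjusted p = 0.178). The cell type lists described above moved with the sort too. Their medians were 2.42 for pluripotency, 2.15 for endoderm, 1.90 for caudal neural, 1.10 for primed epiblast and 0.53 for mesoderm genes. Those of the rostral and pan-neural lists were below 0, at -1.49 and -0.84. The part of any of these lists was not tested.

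**Figure D3:**
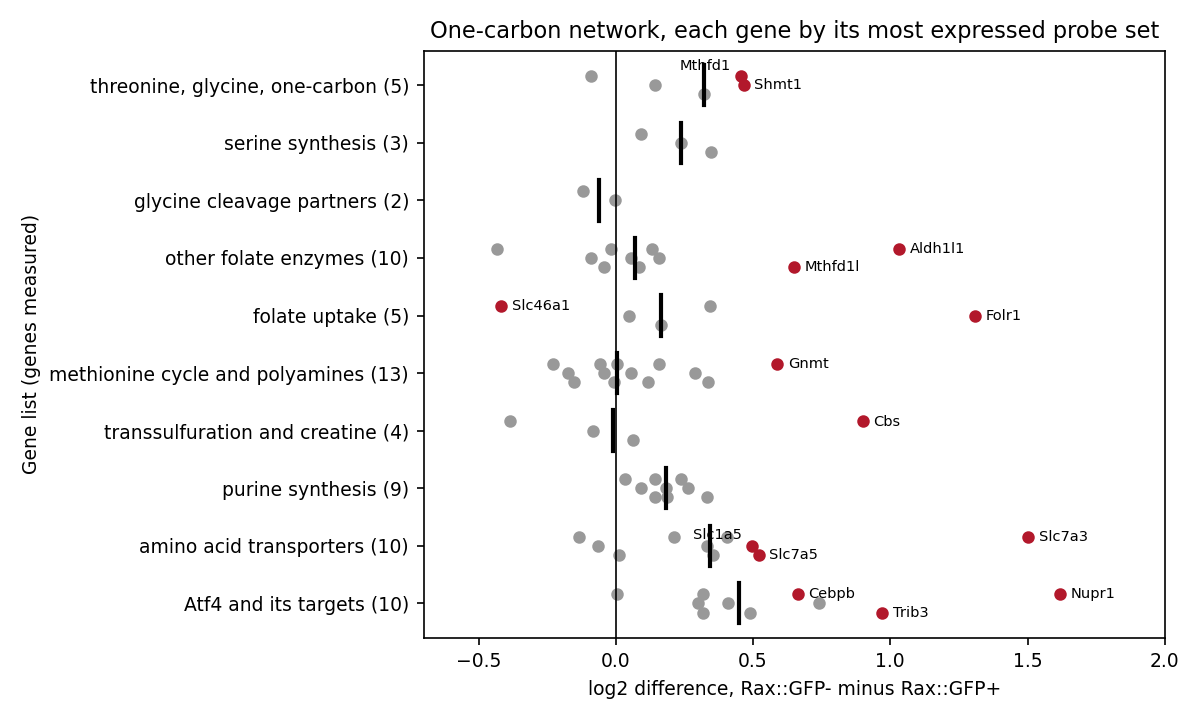
Log2 difference, GFP- minus GFP+ (x axis), of the 5 measured threonine, glycine and one-carbon genes and of 9 lists of the surrounding network (y axis, with the number of genes measured), taken at the brightest probe set of each gene. A circle is a gene, named and red for an adjusted p below 0.05, and a black bar is the median of a list, lowest at -0.06 for the partners of glycine cleavage and highest at 0.45 for Atf4 and its targets.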

How the data were processed

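RNA of 4 day-4.5 samples (2 Rax::GFP+, 2 Rax::GFP-) was hybridized to Affymetrix mouse arrays. The authors deposited log2 values summarized by RMA, which corrects background, gives arrays a common distribution (a difference in total RNA is thus not visible) and yields 1 value per probe set. The submitters' notes name R 2.13.0. Groups came from the sample titles. All 45101 probe sets, 64 controls included, entered a fit of the 2 groups in limma 3.58.1 (R 4.3.3), with 2 residual and 2.52 prior degrees of freedom, and p-values were adjusted by Benjamini-Hochberg at 0.05. The script was tested on simulated data. The number of arrays limits the precision. Genes were named from the platform annotation (34958 probe sets with 1 symbol, 932 with several, 9211 unnamed here), and none from a probe set with several. A gene was represented by its probe set with the highest mean. All 5 measured genes are named with every probe set, and of each list the genes that passed (up to 4) and the 2 brightest that did not. A search for genes with a pattern like Tdh was not run, as Tdh had no probe set named in the platform annotation. Motif letters were chosen after the values were seen. The members and lists were chosen with earlier results of these data known. Other settings tried were Storey's q-value (lambda 0.5), a block for the replicate number, a filter (log2 of at least 5 on at least 2 arrays), median centring, quantile normalization, an intensity trend, array weights, the mean of a gene's probe sets, and leaving out each array.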

Additional observations from a re-analysis of the deposited data

How the results depend on the processing

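Among the glycine and one-carbon enzymes, 4 probe sets and 2 genes were called. The counts were 5 to 6 and 2 under Storey's q-value, the filter on dim probe sets and median centring. They were 4 to 6 and 2 under quantile normalization, the intensity trend and array weights. With the mean of all probe sets, 2 genes were called. Calls over all probe sets rose under each of the settings that counted probe sets, from 3367 to between 3446 (array weights) and 6962 (intensity trend). The member counts are thus no gain particular to these enzymes. No call among these enzymes was kept when any array was left out. A left-out array leaves its group with 1, whose spread is then taken from the other group. The 1 reversed sign was that of 1434204_x_at of Shmt2, whose lowest value was -0.045 without GFP+ replicate 2 and whose highest was 0.098 without the other GFP+ array. With the replicate block, which leaves 1 residual degree of freedom, 0 member probe sets, 0 member genes, 0 network genes in either direction and 0 of all probe sets in either direction passed, and the 4 member calls had adjusted p = 0.102 to 0.115. The study describes biological duplicates from pooled aggregates of each experiment, so a GFP+ and a GFP- sample may share a sort. The labels do not say whether equal numbers mark 1 sort. Replicate 1 deviated from its group mean with a correlation of -0.05 between the groups across probe sets, which from 2 pairs does not settle whether the samples are paired, so the calls hold only for the fit without the block.

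Of the surrounding network, 11 genes higher and 1 lower became 19 and 2 with Storey's q-value and 17 and 2 with the filter on dim probe sets. They became 26 and 3 with the intensity trend and 21 and 2 with the mean of all probe sets. The lower gene was lost (0) with median centring and with quantile normalization. The share of all genes called under each setting is not given, so these counts show no gain particular to the network. Leaving out an array gave 0 to 6 higher and 0 lower. Over all probe sets, 1642 higher and 1725 lower became 2907 and 3256 with Storey's q-value and 3230 and 3732 with the intensity trend, and leaving out an array gave 0 to 1059 higher and 0 to 1919 lower. The cause of these shifts was not tested, beyond the smaller number of probe sets or arrays where a setting removes them.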
